A study of Mus musculus with 22 samples.

Results

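The genes described here are 35 mouse genes of mitosis and the spindle, named one by one in a list that covers cyclins and CDK1 control, mitotic kinases, the anaphase-promoting complex (APC/C), chromosome structure, the spindle checkpoint, the kinetochore, spindle motors, and the central spindle with cytokinesis. They were followed in haematopoietic stem cells of wild-type C57Bl/6J fetal liver of E14.5 embryos. A probe that carried only the gene's own symbol measured 34 of the 35, out of 22180 genes measured that way, and each of the 34 had 1 such probe. The mitotic cyclin gene Ccnb1 was not analysed here.

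The liver cells spent 4 h or 10 h on OP9-DL1, bone marrow stroma of mouse that carries the Notch ligand Delta-like 1. They received a gamma-secretase inhibitor (GSI, 1 µM) or DMSO, and the SLAM LSK fraction was then sorted. LSK stands for cells without lineage markers but with Sca-1 and Kit, and SLAM receptors narrow this gate to a population rich in stem cells. Gamma-secretase makes the cut that frees the active part of Notch receptors. The inhibitor was present in the whole culture, so other liver cells and the stroma met it too. The arrays were 4 GSI and 4 DMSO samples of 10 h, and 7 GSI and 7 DMSO samples of 4 h, with 1 sample per 1-colour array; each replicate was a GSI and a DMSO sample, called a pair here.

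During mitosis, cyclin A and cyclin B with the kinase CDK1 drive entry, Aurora and Polo-like kinases and kinesins build the spindle, and kinetochores attach chromosomes to it. The spindle checkpoint holds back the APC/C until every kinetochore is attached, and the central spindle then places the cleavage furrow. Transcripts of most of these genes build up in the late part of the cell cycle, and fetal liver stem cells are known as a dividing population. In bulk RNA of this kind, fewer cells in a phase of the cycle and less RNA per cell cannot be told apart.

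All values are log2. GSI and DMSO were compared on the values as deposited, where array medians over all probes lay between 4.45 and 4.52 at 10 h but between 5.03 and 5.12 at 4 h. Both times were compared only after all 22 arrays had been quantile normalized together, which gives every array the same distribution. Codes in the sample descriptions, whose meaning is not stated and which are called runs here, split the arrays into 5 sets that each held a single time, so these sets and time cannot be told apart. As a check of the inhibitor, Hes1, a direct Notch target, was 1.36 ± 0.117 lower with GSI at 10 h and 0.97 ± 0.0884 lower at 4 h (± SE, limma adjusted p = 4.72e-05 and 0.000199), lower in 4 of 4 and in 7 of 7 pairs. Of the markers of the sorted cells, Kit averaged 9.30 with GSI and 9.14 with DMSO at 10 h, and 10.04 and 9.97 at 4 h, and Cd34 lay between 9.94 and 10.8 in the 4 groups. Slamf1, which codes for the SLAM receptor CD150, averaged 4.97 and 4.74 at 10 h and 4.01 and 3.98 at 4 h in the same order, a little above the array medians at 10 h and more than 1 unit below them at 4 h. Probes differ in brightness, so these values rank no gene against another.

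The first comparison asked whether blocking Notch cleavage for 10 h changed the mitosis genes. Of the 34 members, 1 rose and 0 fell at a limma adjusted p under 0.05, while over all 22180 genes 0.667% passed (0.555% higher and 0.113% lower). Without the pair in the limma fit no gene passed, and neither did Hes1. The gene that rose was Dsn1, a subunit of the Mis12 complex in the kinetochore, on chromosome 2. The median change of the members was 0.01, against -0.01 for all genes, and it turned to -0.05 after joint quantile normalization and -0.08 after cyclic loess. At an unadjusted p under 0.05 stood 13 of the 34 members, or 38.2%, against 14.1% of all genes, and 8 of the 13 were higher with GSI and 5 lower. In the related lists described below, the share was 14.7% of 68 further mitosis genes and 14.8% of 27 DNA replication genes. It was 20% of 15 APC/C subunits and activators and 12% of 25 regulators of mitotic transcription.

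Dsn1 stood at 7.25, 6.94, 7.08 and 6.94 in the GSI cultures of pairs 1 to 4 at 10 h, against 6.22, 6.19, 6.48 and 5.86 in their DMSO partners. Every GSI value lay above every DMSO value, as for 1.41% of all genes, and the differences of the 4 pairs were 1.04, 0.75, 0.60 and 1.07. The mean difference was 0.86 ± 0.135 (SE), a 1.82-fold higher value with GSI, with a 95% interval of 0.58 to 1.15 and a limma adjusted p of 0.0110. Among the 4 h cultures Dsn1 ran from 7.18 to 7.95 (median 7.49) with GSI and from 7.41 to 7.72 (median 7.55) with DMSO, and these groups overlapped. The adjusted p of Dsn1 at 10 h was 0.0502 without pair 1 and 0.0598 without pair 4, and 0.0863 when the pair was left out of the fit. It was 0.0635 with a spread set separately for each time and 0.226 with the 10 h arrays fitted alone, so the call needed both the pair in the fit and a spread pooled over the times.

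Kinetochore genes beside Dsn1 were mixed. Ndc80, whose product binds spindle microtubules, measured 9.21, 8.90, 9.02 and 8.97 with GSI at 10 h, against 8.85, 8.54, 8.75 and 7.97 with DMSO. Again every GSI value exceeded every DMSO value, and the difference of 0.49 ± 0.117 did not pass the test (adjusted p = 0.0698). Pair 4, with the lowest DMSO value, differed by 0.995 and the other pairs by 0.26 to 0.36. Nuf2, a partner of Ndc80 in the same complex, differed by 0.21 ± 0.0984 (adjusted p = 0.341). Cenpa, the centromeric histone H3 variant, differed by 0.18, whereas Cenpe, a kinetochore kinesin, and Cenpf differed by -0.13 and -0.25, and none of the 3 passed.

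Among the mitotic kinases, Aurkb, the kinase of the chromosomal passenger complex, was at 8.45, 9.05, 8.89 and 8.27 with GSI at 10 h, against 8.29, 8.62, 8.67 and 7.76 with DMSO. Each GSI value exceeded that of its own pair while the groups overlapped, and the difference was 0.33 ± 0.0912 (adjusted p = 0.104). Nek2, a kinase of centrosome separation, went the other way in every pair, with 7.40, 6.97, 7.04 and 7.34 in GSI cultures against 7.84, 7.20, 7.49 and 7.69 in DMSO cultures. Its difference of -0.37 ± 0.0897 did not pass (adjusted p = 0.0728). Plk1, the Polo-like kinase of spindle and cytokinesis, differed by 0.24 ± 0.109 (adjusted p = 0.339, higher in 3 of 4 pairs), and Aurka, the spindle pole kinase, by 0.06.

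Neither the cyclins nor the other regulators of CDK1 passed. Cdk1 differed by 0.14 ± 0.0652 (adjusted p = 0.351), the cyclin genes Ccna2 and Ccnb2 by -0.09 and 0.03, and the phosphatase genes Cdc25b and Cdc25c by -0.31 and 0.33. Cdc20, the APC/C activator that the checkpoint restrains, was at 9.02, 8.73, 8.73 and 7.99 with GSI at 10 h, against 8.42, 8.78, 8.60 and 7.54 with DMSO, and its difference of 0.28 ± 0.0989 did not pass (adjusted p = 0.204). Pair 4 was the lowest pair for Cdc20 in both groups. Ube2c, the ubiquitin-conjugating enzyme of the APC/C, differed by 0.13. Mki67, the proliferation marker Ki-67 that coats mitotic chromosomes, differed by -0.13 ± 0.0688 (adjusted p = 0.417), and Top2a, the topoisomerase that untangles them, by 0.09 ± 0.0604 (adjusted p = 0.534).

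Genes of the spindle motors, the central spindle and cytokinesis lay mostly below 0 without passing. Of the 6 genes of the central spindle and cytokinesis 1 had a positive difference, and of the 6 spindle motor and assembly genes also 1. Among all 22180 genes 10255 had a positive difference. Prc1, which bundles microtubules of the central spindle, measured 8.73, 8.30, 8.40 and 8.45 with GSI at 10 h, against 8.91, 8.68, 8.53 and 8.85 with DMSO. The difference of -0.27 ± 0.0858 had an adjusted p of 0.163. For the kinesin gene Kif20a, all 4 GSI values, at 7.72 to 7.96, lay below all 4 DMSO values, at 7.98 to 8.16, as for 1.31% of all genes, and the difference of -0.25 did not pass (adjusted p = 0.226). In all, 3 members were higher in 4 of 4 pairs (Aurkb, Dsn1 and Ndc80), as were 8.47% of all genes, and 7 were lower in 4 of 4 pairs (Ccna2, Cdc25b, Cenpe, Kif20a, Birc5, Prc1 and Nek2), as were 8.2% of all genes.

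**Figure D1:**
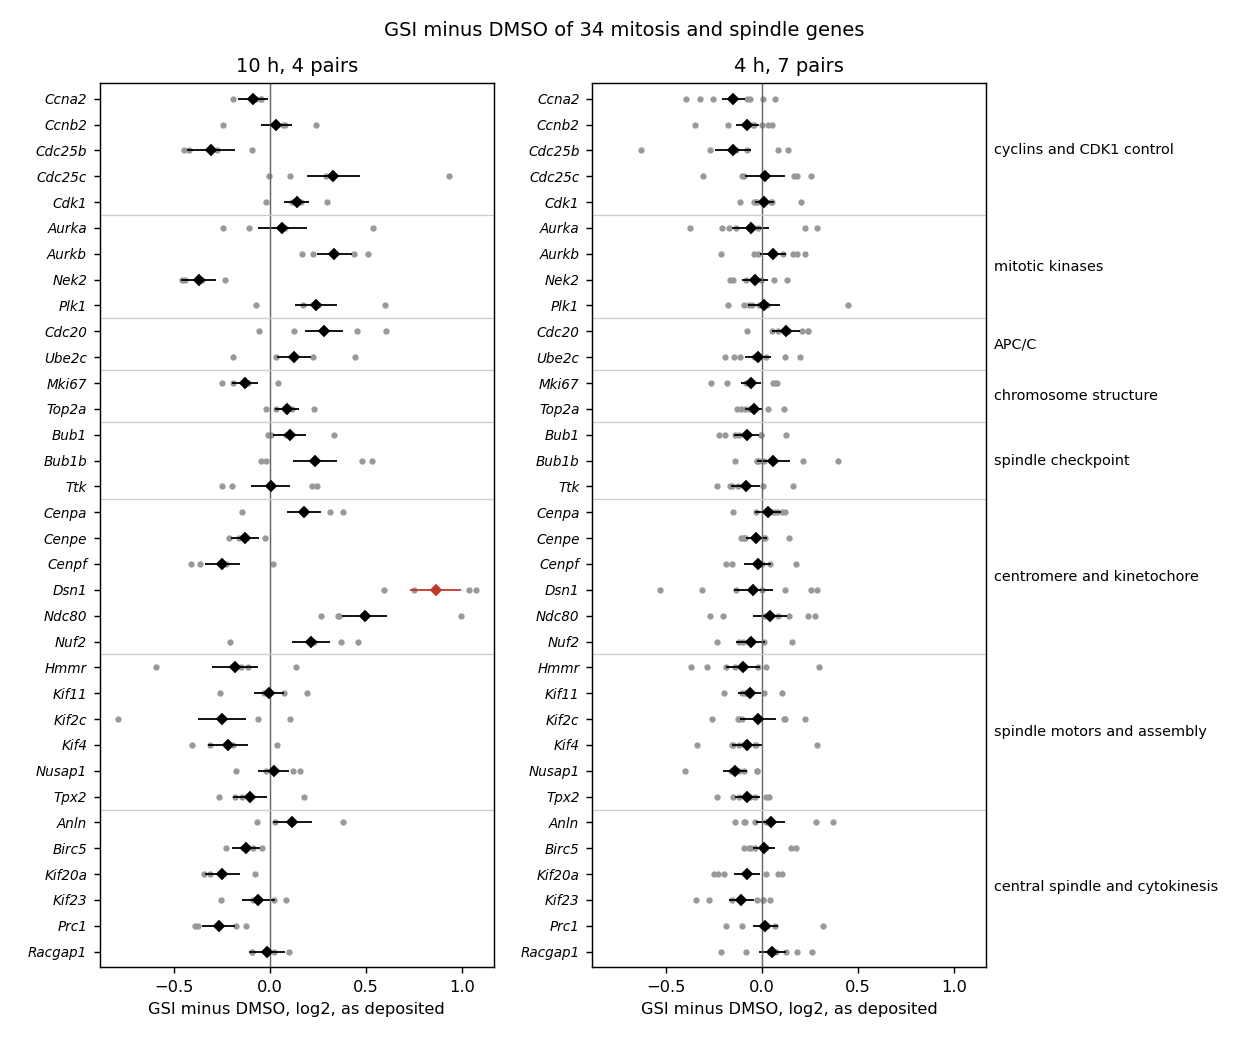
GSI minus DMSO of the 34 measured members on the log2 scale, 10 h on the left (4 pairs) and 4 h on the right (7 pairs), by role. Grey points are pairs, diamonds the fitted difference with its standard error, and red marks the 1 member past an adjusted p of 0.05, Dsn1 at 10 h with 0.86.

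**Figure D2:**
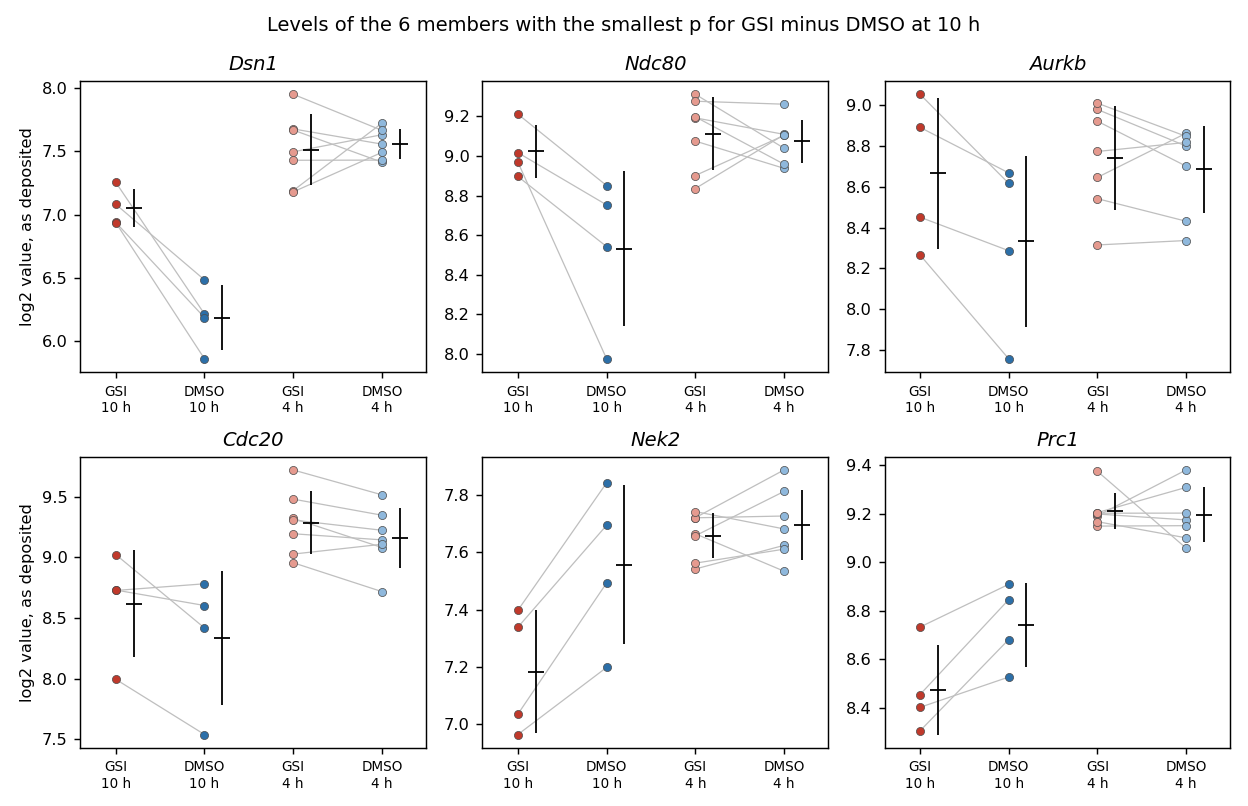
Log2 values as deposited of the 6 members with the smallest p at 10 h, 1 point per array, with pairs joined and the mean and SD beside each group. Dsn1 lay between 6.94 and 7.25 with GSI at 10 h, above the 4 DMSO values of 5.86 to 6.48.

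Other lists held few calls at 10 h. Of 68 further mitosis genes, 1 rose with GSI, the kinase gene Nek6 (0.46 ± 0.0993, adjusted p = 0.0495), and 0 fell, with Espl1, the separase gene, at 0.44 ± 0.114 (adjusted p = 0.0940) and Depdc1b at 0.45 ± 0.138 (adjusted p = 0.141). Of 15 APC/C subunits and activators 1 rose, the subunit gene Anapc5 (0.33 ± 0.0696, adjusted p = 0.0436), and Cdc23 stood at 0.35 (adjusted p = 0.0959). None of 25 regulators of mitotic transcription and none of 27 DNA replication genes passed, with Foxm1 at 0.06, Mybl2 at -0.05 and Cdkn1a at -0.14. Of the markers of other cell types, 1 passed at 10 h, the stromal Fabp4, which was lower with GSI (-2.05 ± 0.446, adjusted p = 0.0495), while the other 14 of 15 OP9 stromal markers did not pass and their list had a median difference of -0.39. None of 10 macrophage, 9 erythroid and 10 hepatocyte markers passed, with medians of -0.22, -0.16 and -0.01. Of 6 markers of the sorted stem cells themselves 2 rose, Hlf by 0.73 ± 0.132 and Mecom by 0.82 ± 0.172 (adjusted p = 0.0236 and 0.0436). The array means of the stromal markers ran from 5.07 to 6.43 with GSI and from 5.55 to 6.97 with DMSO at 10 h, and their part in the members' values was not tested.

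At 4 h no member passed between GSI and DMSO. In limma 0 of 34 had an adjusted p under 0.05, while 0.00451% of all genes did, which was Hes1, and 2 of the 34 had an unadjusted p under 0.05, against 4.21% of all genes. The differences ran from -0.15 to 0.12 with a median of -0.04, against 0.01 for all genes. Ccna2 ran from 9.33 to 9.97 (median 9.83) with GSI and from 9.40 to 10.16 (median 9.91) with DMSO, and differed by -0.15 ± 0.0587. Nusap1, a microtubule-bundling spindle protein, was lower with GSI in 7 of 7 pairs, the only member to move the same way in all of them, as 0.807% of all genes did. It ran from 9.03 to 9.29 (median 9.17) with GSI and from 9.10 to 9.44 (median 9.34) with DMSO, so the groups overlapped, and differed by -0.14 ± 0.0611. The next smallest p-values belonged to Cdc20 (0.12 ± 0.0747), the centralspindlin kinesin gene Kif23 (-0.11 ± 0.0665), Cdc25b (-0.15 ± 0.0936) and Ccnb2 (-0.08 ± 0.0598). Cdk1 and Plk1 differed by 0.01 each, Aurkb by 0.06, Mki67 by -0.06 and Top2a by -0.04, and for these 5 genes the 95% intervals lay within -0.17 to 0.20. All of these had a limma adjusted p of 0.999.

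None of the other lists held a gene past the threshold at 4 h. Their 3 smallest p-values were those of Cenpp (-0.23), Cenpk (-0.24) and Psrc1 (0.22) among further mitosis genes, and of Rrm2 (-0.26), Ccne1 (-0.15) and Pcna (-0.06) among DNA replication genes. Among the regulators they were Cdkn1a (0.31), Tfdp2 (-0.18) and E2f7 (0.13).

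Whether the effect of GSI itself differed between 10 h and 4 h was tested as a term of the same fit. In that test 0 of 34 members passed and 0.018% of all genes did, and 6 of 34 had an unadjusted p under 0.05, against 9.36% of all genes. Dsn1 had the largest term, 0.91 ± 0.169 with a 95% interval of 0.55 to 1.27 (limma adjusted p = 0.179). The terms of Ndc80, Nek2, Prc1, Aurkb and Nuf2 were 0.45, -0.33, -0.28, 0.28 and 0.27, each with an adjusted p between 0.407 and 0.512. Those of Plk1, Top2a, Cdk1 and Mki67 were 0.23, 0.13, 0.13 and -0.07.

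The second question was what the longer culture did. On jointly normalized values, 8 of 34 members were higher at 10 h than at 4 h with GSI and 1 was lower, a share of 26.5% against 36.1% of all genes (19.1% higher, 17% lower). In DMSO 11 were higher at 10 h and 1 was lower, 35.3% against 33.9% of all genes (18.7% higher, 15.2% lower). At an unadjusted p under 0.05 stood 12 members with GSI (35.3%, against 46.1% of all genes) and 14 in DMSO (41.2%, against 45.1%). By direction, 23.5% of members with GSI and 32.4% in DMSO were higher, and 2.94% in each were lower. The members' median change was 0.16 with GSI and 0.14 in DMSO, against 0.03 and 0.04 for all genes, but on the values as deposited it was -0.28 and -0.34, where the median of all genes itself was -0.42 and -0.41. As deposited, 1 member with GSI (Ttk) and 0 in DMSO passed as higher at 10 h, against 2.12% of all genes with GSI and 2.09% in DMSO. As lower passed 17 in each, or 50% of 34, against 65% of all genes with GSI and 58.1% in DMSO. Relative to that shift, 23 of 34 members with GSI and 21 in DMSO lay above the median gene. All directions of time below are on the jointly normalized scale, and the runs differ between 4 h and 10 h as well.

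The spindle checkpoint gene Ttk, which codes for the kinase MPS1, had the largest change among the members in both treatments, 0.93 ± 0.128 with GSI and 0.89 ± 0.163 in DMSO (adjusted p = 0.000293 and 0.00182). It measured 8.87, 8.72, 8.49 and 8.74 with GSI at 10 h, against 7.39 to 7.98 (median 7.89) with GSI at 4 h. In DMSO it measured 9.16, 8.50, 8.73 and 8.70 at 10 h, against 7.48 to 8.19 (median 7.86) at 4 h. Neither treatment showed any overlap between times, as for 12.7% of all genes with GSI and 11.8% in DMSO, and on the values as deposited the change was 0.48 with GSI (adjusted p = 0.00516) and 0.39 in DMSO, where it did not pass (adjusted p = 0.0565). Bub1, a checkpoint kinase at kinetochores, was at 8.92 to 9.07 with GSI at 10 h and 8.10 to 8.63 at 4 h, and at 8.88 to 9.06 and 8.21 to 8.78 in DMSO. Its change was 0.62 ± 0.107 with GSI and 0.49 ± 0.129 in DMSO (adjusted p = 0.00107 and 0.0118), but as deposited 0.19 and 0.0046, which did not pass. The third checkpoint gene, Bub1b, changed by 0.12 and 0.02 and did not pass, while as deposited it passed as lower in both (-0.32 and -0.50, adjusted p = 0.0441 and 0.0241).

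Top2a changed by 0.41 ± 0.0749 with GSI and 0.33 ± 0.0864 in DMSO (adjusted p = 0.00148 and 0.0113). Its values of 10.41 to 10.53 at 10 h with GSI lay above those of 9.84 to 10.20 at 4 h, and in DMSO the lowest value at 10 h lay just above the highest at 4 h (both 10.31 when rounded). Mki67 changed by 0.27 ± 0.0703 with GSI and 0.39 ± 0.0884 in DMSO (adjusted p = 0.0104 and 0.00569), with 10.32 to 10.56 against 10.00 to 10.27 with GSI and 10.51 to 10.70 against 10.07 to 10.43 in DMSO. The cyclin genes followed, Ccna2 with 0.42 and 0.40 and Ccnb2 with 0.54 and 0.48 (adjusted p = 0.0237 and 0.0434, 0.0362 and 0.0197). For Ccna2 the 10 h values were all higher than those of 4 h in each treatment, while those of Ccnb2 overlapped. As deposited, the changes with GSI and in DMSO were 0.14 and 0.0050 for Top2a, 0.0038 and 0.076 for Mki67, 0.11 and 0.045 for Ccna2 and 0.27 and 0.15 for Ccnb2, and none of them passed. These 6 genes (Ttk, Bub1, Top2a, Mki67, Ccna2 and Ccnb2) were the members higher at 10 h in both treatments, 17.6% of 34 against 13.4% of all genes.

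Other members passed in a single treatment. Whether the treatments differ was tested above as the GSI effect by time, where no member passed. That test used the values as deposited with the pair in the fit, not the joint scale. With GSI the members that passed in a single treatment were Nuf2 (0.35 ± 0.105, adjusted p = 0.0195) and Ndc80 (0.31 ± 0.111, adjusted p = 0.0439), which turned to -0.06 and -0.09 as deposited. In DMSO they were Cenpf (0.53 ± 0.110, adjusted p = 0.00353), the chromokinesin gene Kif4 (0.45), Nek2 (0.42), Kif20a (0.40) and Tpx2, an activator of Aurora A (0.38). On the values as deposited Cenpf changed by 0.013 (adjusted p = 0.929), and Kif4, Nek2, Kif20a and Tpx2 turned to -0.10, -0.14, -0.12 and -0.12.

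Dsn1 was the 1 member that fell by 10 h in DMSO, by 0.73 ± 0.129 on the log2 scale (adjusted p = 0.00154), with -1.37 on the values as deposited. It stood at 6.71, 6.55, 6.85 and 6.39 at 10 h, against 7.18 to 7.53 (median 7.34) at 4 h, with no overlap, as for 9.12% of all genes. With GSI it stood at 7.63, 7.26, 7.35 and 7.28 at 10 h and at 6.95 to 7.76 (median 7.25) at 4 h, a change of 0.09 with a 95% interval of -0.25 to 0.43, and of -0.46 as deposited (adjusted p = 0.0193). The DMSO arrays of 10 h serve here and in the comparison of GSI with DMSO, so the fall in DMSO and the higher value with GSI are not independent. Prc1 fell by 0.32 ± 0.102 with GSI (adjusted p = 0.0282) and changed by 0.02 in DMSO, with -0.74 and -0.46 as deposited, where both passed (adjusted p = 4.22e-05 and 0.00321).

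The kinases of mitotic entry did not pass in either treatment on the joint scale, while as deposited Cdk1 (-0.41 with GSI and -0.54 in DMSO) and Plk1 (-0.46 and -0.69) passed as lower in both (adjusted p = 0.00224 and 0.00126, 0.00727 and 0.00470). Cdk1 measured 10.02 to 10.23 with GSI at 10 h and 9.96 to 10.41 at 4 h, a change of -0.13 ± 0.0938 (adjusted p = 0.291), and changed by -0.19 ± 0.0970 in DMSO (adjusted p = 0.147). Plk1 changed by -0.04 ± 0.134 and -0.21 ± 0.158 (adjusted p = 0.821 and 0.328), and Aurkb by 0.34 ± 0.174 and 0.14 ± 0.165 (adjusted p = 0.146 and 0.525). Cdc20 changed by -0.25 and -0.34 and Aurka by 0.05 and -0.01, each value with GSI given before that in DMSO. As deposited both passed as lower in both treatments. Cdc20 was at -0.67 and -0.83 (adjusted p = 0.00715 and 0.00513) and Aurka at -0.39 and -0.52 (adjusted p = 0.00312 and 0.0122). By role, all 6 spindle motor and assembly genes had a positive change in both treatments, with medians of 0.20 and 0.30, and a negative one in both as deposited. With GSI 0 of them passed and the lowest was 0.0023, and in DMSO 2 passed. Among all 22180 genes 11823 had a positive change with GSI and 12140 in DMSO. The 6 genes of the central spindle and cytokinesis had medians of -0.04 and 0.00.

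**Figure D3:**
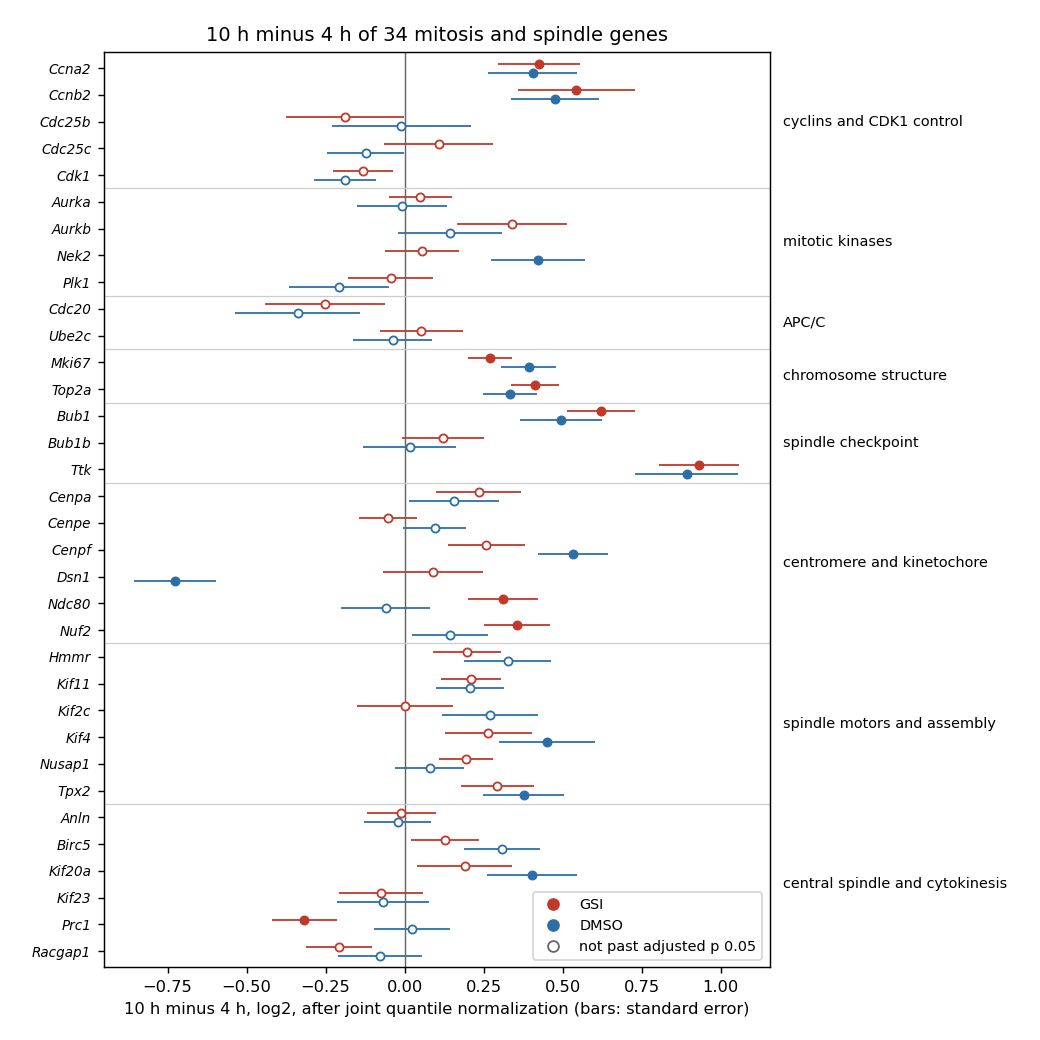
Change from 4 h to 10 h of the 34 members with GSI (red) and in DMSO (blue), log2 after joint quantile normalization, with the standard error. Filled points passed an adjusted p of 0.05, and Ttk stood farthest right at 0.93 and 0.89. On the values as deposited the members' medians were -0.28 with GSI and -0.34 in DMSO, and among the changes that passed those of Nuf2 and Ndc80 with GSI and of Kif20a, Kif4, Nek2 and Tpx2 in DMSO had the opposite sign.

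**Figure D4:**
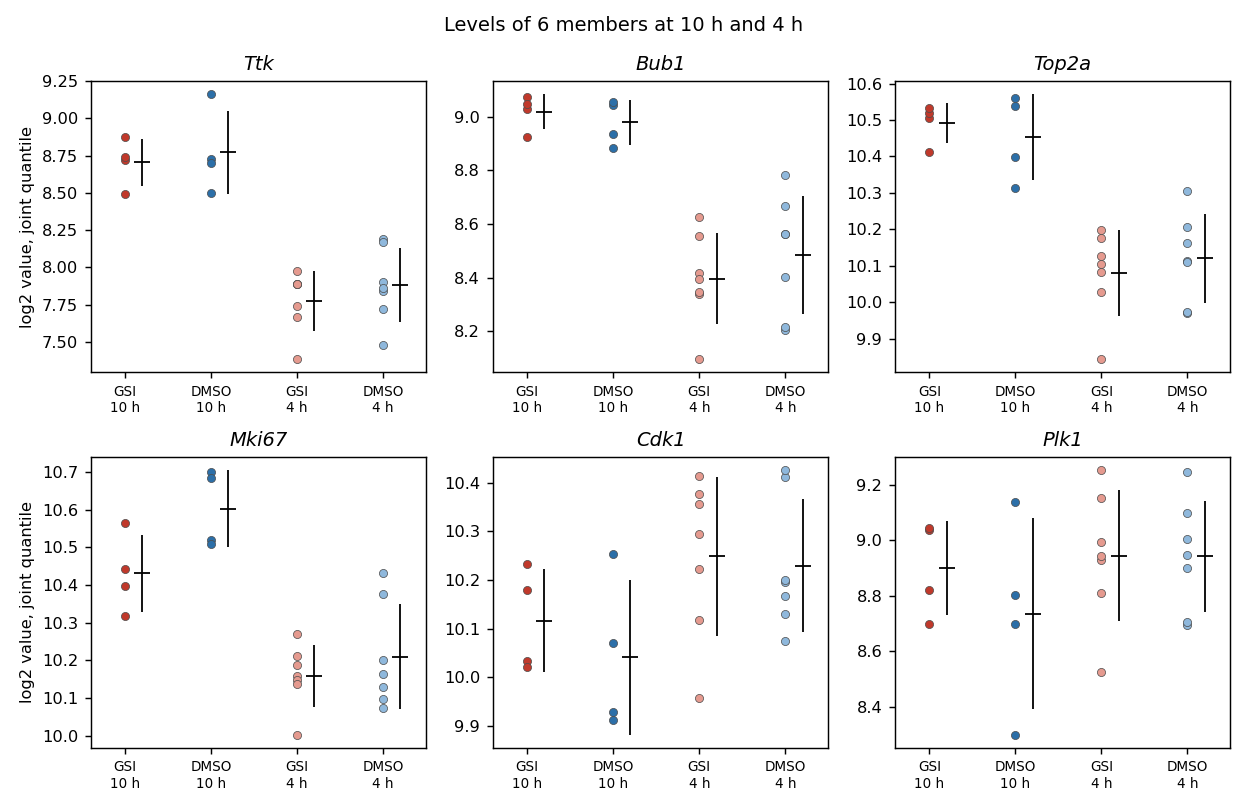
Log2 values after joint quantile normalization of 4 members that were higher at 10 h in both treatments (Ttk, Bub1, Top2a and Mki67) and of Cdk1 and Plk1, which did not pass on this scale. As deposited, Ttk with GSI passed as higher and Cdk1 and Plk1 as lower. Points are arrays, and bars the mean and SD. Ttk at 10 h lay between 8.49 and 9.16, above all 4 h arrays.

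The promoters of the members were read for motifs known from cell cycle genes. Many mitotic genes in mouse and human carry a cell cycle genes homology region (CHR) near the start of transcription, bound by the MuvB core of the DREAM complex, and CCAAT boxes, bound by NF-Y. RefSeq promoters of build GRCm38.p6, from 250 bases before to 50 after the annotated start, matched 29 of the 34 members, with the first listed start for each gene. Searched on both strands, the CHR letters TTTGAA or TTCGAA stood in 23 of 29, or 79.3%, against 19.4% of all 27025 promoters. Within 50 bases of the start they stood in 72.4%, against 5.3%. A CCAAT box stood in 75.9% of the members, against 37.9% of all promoters, and 2 or more in 48.3%, against 12.2%. Both motifs stood in 69.0%, against 7.7%. The outer base of a CCAAT match may be shared with a CHR match, and CCAAT matches that overlap on opposite strands were counted separately. TTCGAA reads the same on both strands and was counted once, and a match is not a tested binding site.

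Of the 6 members higher at 10 h in both treatments, 5 had a promoter, and each of the 5 held a CHR and 2 or more CCAAT boxes. Members that were not higher in both held this combination too. Aurka, Cdc20, Cenpa, Cenpf and Kif4 held 1 CHR and 2 CCAAT boxes each. Cdk1 held 2 and 3, Hmmr 1 and 5, and Ube2c 1 and 6, where 2 of the 6 CCAAT matches overlap on opposite strands. How many of all promoters held this combination was not counted. A link between the motifs and the change with time was not tested. Of the 5 promoters, those of Ttk (chr9:83834439-83834738, plus strand), Bub1 (chr2:127831810-127832109, minus strand), Ccnb2 (chr9:70421505-70421804, minus strand) and Top2a (chr11:99024140-99024439, minus strand) are printed. Beside them stand Nek2 (chr1:191821223-191821522, plus strand), which held 2 CCAAT boxes and no CHR, and Dsn1 (chr2:157007026-157007325, minus strand), the member higher with GSI at 10 h, 1 of 4 members with neither motif in this window. All are written along the gene's strand, 5′ to 3′, with matches on either strand in capitals.
Ttk: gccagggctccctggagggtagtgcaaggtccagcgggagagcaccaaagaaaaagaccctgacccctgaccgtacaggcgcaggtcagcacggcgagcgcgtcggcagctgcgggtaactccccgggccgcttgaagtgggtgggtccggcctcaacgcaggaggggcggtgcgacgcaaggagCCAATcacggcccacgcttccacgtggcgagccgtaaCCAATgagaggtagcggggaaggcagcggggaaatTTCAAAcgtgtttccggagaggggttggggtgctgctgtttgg
Bub1: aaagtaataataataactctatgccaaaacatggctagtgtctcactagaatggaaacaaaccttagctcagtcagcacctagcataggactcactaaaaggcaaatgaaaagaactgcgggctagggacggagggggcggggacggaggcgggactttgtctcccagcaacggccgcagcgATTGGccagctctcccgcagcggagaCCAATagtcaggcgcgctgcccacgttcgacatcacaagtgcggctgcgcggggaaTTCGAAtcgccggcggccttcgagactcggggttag
Ccnb2: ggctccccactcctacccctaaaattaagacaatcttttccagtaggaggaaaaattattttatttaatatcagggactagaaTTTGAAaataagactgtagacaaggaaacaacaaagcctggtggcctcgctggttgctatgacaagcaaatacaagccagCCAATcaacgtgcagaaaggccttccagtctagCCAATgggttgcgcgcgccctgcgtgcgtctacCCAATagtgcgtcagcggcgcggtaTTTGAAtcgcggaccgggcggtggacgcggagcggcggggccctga
Top2a: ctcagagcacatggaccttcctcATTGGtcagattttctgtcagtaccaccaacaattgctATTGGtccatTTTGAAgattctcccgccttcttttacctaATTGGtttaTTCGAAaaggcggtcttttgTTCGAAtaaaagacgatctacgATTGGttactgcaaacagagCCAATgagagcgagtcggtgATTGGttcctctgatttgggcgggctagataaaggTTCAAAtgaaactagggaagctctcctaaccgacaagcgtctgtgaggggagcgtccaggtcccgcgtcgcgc
Nek2: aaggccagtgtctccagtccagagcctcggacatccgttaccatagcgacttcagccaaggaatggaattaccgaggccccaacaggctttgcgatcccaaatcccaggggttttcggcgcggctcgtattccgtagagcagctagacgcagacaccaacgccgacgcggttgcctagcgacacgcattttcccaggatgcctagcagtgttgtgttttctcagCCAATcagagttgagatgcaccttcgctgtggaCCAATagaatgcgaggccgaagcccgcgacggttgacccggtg
Dsn1: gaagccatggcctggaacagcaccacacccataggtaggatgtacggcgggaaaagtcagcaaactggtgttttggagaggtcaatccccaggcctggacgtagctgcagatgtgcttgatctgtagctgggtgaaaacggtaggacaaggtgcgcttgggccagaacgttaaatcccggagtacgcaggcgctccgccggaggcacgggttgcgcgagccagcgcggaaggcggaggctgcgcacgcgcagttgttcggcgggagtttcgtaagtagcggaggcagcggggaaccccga

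Genes of the same pathways were counted for comparison. Of 68 further mitosis genes, 31 were higher at 10 h with GSI and 29 in DMSO, 2 were lower in each, and the median change was 0.34 in each. The shares higher were 45.6% and 42.6%, against 19.1% and 18.7% of all genes, and the shares lower 2.94% in each, against 17% and 15.2%. With GSI the smallest p-values were those of the centromere genes Cenpn (0.91 ± 0.109) and Cenpt (-0.73 ± 0.0892) and the spindle kinesin gene Kif15 (0.79 ± 0.110), with adjusted p of 0.000133, 0.000149 and 0.000314. In DMSO they were those of the condensin gene Smc2 (0.62 ± 0.0882), the securin gene Pttg1 (1.17 ± 0.168) and the checkpoint gene Mad1l1 (0.84 ± 0.131), with adjusted p of 0.000445, 0.000472 and 0.000705. Of 27 DNA replication genes, 20 were higher at 10 h with GSI and 18 in DMSO, or 74.1% and 66.7%, with medians of 0.55 and 0.56, and none was lower. Mcm10, Pola1 and Ccne1 (0.71, 0.86 and 1.04) led with GSI, and Fen1, Mcm5 and Pola1 (1.04, 0.90 and 0.94) in DMSO. On the values as deposited these counts dropped to 7 and 4 of the further mitosis genes and to 4 and 3 of the replication genes. The share of all genes higher dropped as well, to 2.12% with GSI and 2.09% in DMSO.

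Of 15 APC/C subunits and activators, 4 were higher at 10 h with GSI and 3 in DMSO, or 26.7% and 20% against 19.1% and 18.7% of all genes, led by Fbxo5, the APC/C inhibitor EMI1 (0.69 and 0.72), Anapc1 (0.57 and 0.69) and Cdc26 (1.00 and 0.81). Of 25 regulators of mitotic transcription, 7 were higher in each treatment, or 28% against the same shares of all genes, and 2 were lower with GSI and 1 in DMSO. Cdkn1a, the CDK inhibitor p21, fell, with a change of -2.71 ± 0.244 with GSI and -2.18 ± 0.359 in DMSO (adjusted p = 2.32e-05 and 0.00100). Its values of 7.67 to 8.60 and 7.93 to 8.94 at 10 h lay below those of 10.27 to 11.57 and 9.64 to 11.52 at 4 h. Mybl2, the B-MYB partner of the MuvB core, rose by 0.69 ± 0.183 and 0.74 ± 0.171 (adjusted p = 0.0113 and 0.00626), and Foxm1, an activator of late cell cycle genes, changed by -0.11 and -0.10 without passing. Rbl1, the pocket protein p107, rose by 0.95 and 1.01, E2f2 by 0.71 with GSI and E2f1 by 0.64 in DMSO.

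Markers of other cells moved with time beside these genes. Of 10 hepatocyte markers, 5 with GSI and 8 in DMSO fell, with medians of -2.25 and -2.23, and their array means were 4.96 to 6.90 and 5.31 to 5.95 at 10 h, against 6.29 to 9.14 and 5.98 to 9.34 at 4 h. Of 15 OP9 stromal markers 10 and 4 fell (medians -1.57 and -0.57), and of 10 macrophage markers 5 and 3 (medians -1.02 and -0.57). Of 9 erythroid markers 5 and 4 rose (medians 0.82 and 0.79). Among the 6 sort and stem cell markers, Slamf1 rose by 1.53 and 1.32, Procr fell (-1.91 and -1.70), and Mecom fell in DMSO (-1.09). Without the 4 h pairs 2, 4 and 5, which had the highest hepatocyte marker means, the members' median change was 0.19 with GSI and 0.13 in DMSO, against 0.16 and 0.14 with all arrays, and with fewer arrays 4 and 3 members passed as higher. This setting was chosen after seeing the data. The 4 h arrays it kept had hepatocyte marker means of 6.29 to 7.16 with GSI and 5.98 to 7.39 in DMSO. The part of the markers of other cells in the members' changes was not tested.

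**Figure D5:**
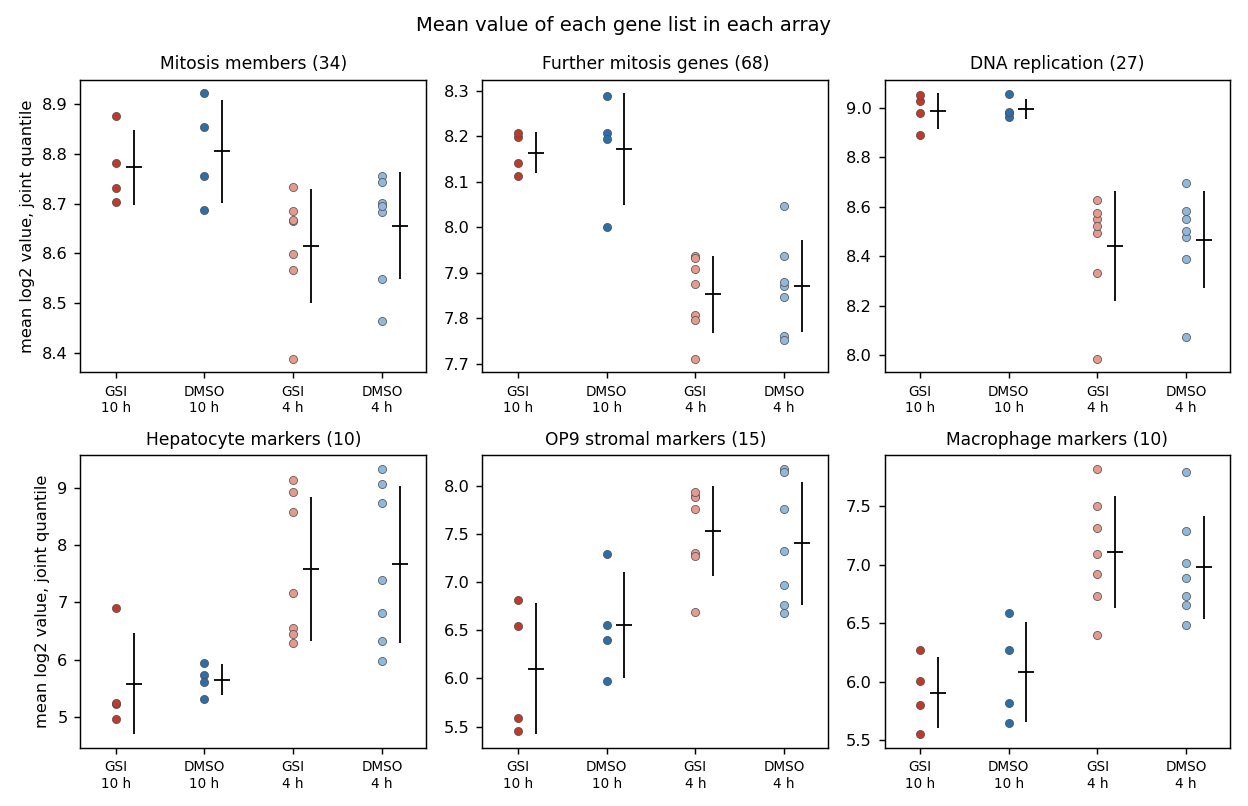
Mean log2 value of each gene list in each array after joint quantile normalization, with the mean and SD of the group beside the points. Group means of members, further mitosis genes and DNA replication genes were higher at 10 h, those of hepatocyte, OP9 stromal and macrophage markers lower. Arrays of both times overlapped in some lists, as for the members with GSI (8.70 to 8.88 at 10 h, 8.39 to 8.73 at 4 h). As deposited the members' group means were lower at 10 h, with arrays at 8.26 to 8.62 against 8.59 to 8.91 at 4 h.

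The count of members past the threshold depended on single arrays. For members higher at 10 h with GSI it was 5, 5 and 4 without the 10 h array of pair 1, 2 or 3, against 8 with all arrays, and the fall of Prc1 did not pass without the 10 h array of pair 2, 3 or 4. In DMSO it was 5 without the 10 h array of pair 1 or of pair 3 and 6 without that of pair 4, and 6 or 7 without the 4 h array of pair 2, 3, 5 or 7, against 11, and 6 with the run as a random block. Ttk, Bub1, Top2a and Mki67 passed in both treatments, and Dsn1 and Cenpf in DMSO, whichever array was left out. Of the 11 fits that left out an array, Ccna2 lost its call in 3 with GSI and 8 in DMSO, and Ccnb2 in 4 and 2.

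Single cultures stood low for many members. The GSI culture of pair 6 held the lowest 4 h value of 19 of the 34 members and its DMSO partner that of 17, while 21.9% and 22.6% of all genes were lowest there. The members averaged 8.59 and 8.66 in that pair as deposited, against up to 8.91 in other 4 h cultures of either treatment. In both cultures of pair 6 the DNA replication genes (8.17 and 8.26), the erythroid markers (6.32 and 6.54) and the sort and stem cell markers (7.84 and 7.69) had their lowest means of the 7, and Hes1 (9.01 and 9.76) its highest value. At 10 h the DMSO culture of pair 4 held the lowest value of 22 members as deposited, against 24.9% of all genes. Its members' mean was 8.26, against 8.48 to 8.62 in the other DMSO cultures and 8.44 in its GSI partner. After joint quantile normalization that mean was 8.69, against 8.76 to 8.92 and 8.70. As deposited, the OP9 stromal (5.55), macrophage (5.23) and erythroid (6.91) marker means of this culture were the lowest of the 4 DMSO cultures too. So were those of DNA replication genes (8.57), APC/C genes (8.41) and sort and stem cell markers (7.15). On the joint scale those of DNA replication and APC/C genes were not the lowest. The SD between cultures had a median over the members of 0.15 with GSI and 0.25 in DMSO at 10 h, and of 0.17 and 0.14 at 4 h, against 0.17, 0.22, 0.19 and 0.19 over all genes.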

How the data were processed

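RNA of sorted fetal liver stem cells was measured on 22 one-colour arrays. Values in the deposited table are log2. The submitters' processing notes name Partek 6.6 and RMA as what the authors used. A joint normalization of both times is not given in the sources used here. Of 41345 probes, 23521 had 1 gene symbol in the platform annotation, 1814 had several and 16010 had none listed. The 1-symbol probe with the highest mean stood for each of 22180 genes, and no gene was filtered. Precision is limited by how many arrays each group has.

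Tests used limma 3.58.1 in R 4.3.3 (lmFit, eBayes with an intensity trend, 2-sided) with Benjamini-Hochberg adjustment over 22180 genes and a threshold of 0.05. All adjusted p-values are limma's. GSI comparisons came from 1 fit of all arrays with the pair as a fixed block. Pairs come from the series' design text, and deviations from the group means correlated across genes at 0.223 to 0.872 within the 4 h pairs and at 0.213 to 0.449 within the 10 h pairs. Time comparisons used values quantile normalized over all 22 arrays, with 11 arrays per treatment. Each replicate is described as biological, but nothing used here says that pairs came from separate litters. The fits were tested on simulated data with a planted log2 change of 1 and no run effect. No member differed by that much in the main fits, so smaller changes and differences between runs were not covered.

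Members, role groups and gene lists were chosen with earlier results of these data known. Full statistics are given for Cdk1, Plk1, Aurkb, Mki67, Top2a and the 6 members with the smallest p in each comparison, and for the 3 smallest p of other lists; others are named by role. Alternatives covered the pair block, normalization, spread, filter, trend, probe choice, run and leaving out each array or pair.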

Additional observations from a re-analysis of the deposited data

Results flagged for a closer look

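Each member was checked for an array, or a pair difference, that stood apart from the rest of its group by Dixon's criterion. Of 204 sets (34 members in 6 sets each), 9 met it, and chance alone gives about 1 in 20. With GSI at 4 h, the culture of pair 6 was the lowest of 7 for Ccnb2 (9.38, the nearest at 10.08) and for Kif20a (7.47, the nearest at 8.13), and the culture of pair 1 was the highest for Prc1 (9.38, the nearest at 9.20). In DMSO at 4 h, the culture of pair 5 was the lowest for Cenpe (8.97, the nearest at 9.12). With GSI at 10 h, the culture of pair 1 was the lowest of 4 for Kif2c (7.31, the nearest at 7.68). In DMSO at 10 h, the culture of pair 4 was the lowest for Anln (8.05, the nearest at 8.35). Among GSI minus DMSO differences, pair 3 at 4 h was the highest for Plk1 (0.45, the nearest at 0.03), pair 4 at 4 h the lowest for Nusap1 (-0.40, the nearest at -0.16), and pair 4 at 10 h the highest for Ndc80 (0.995, the nearest at 0.36).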

How the results depend on the processing

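At 4 h no member passed under any alternative, and the members' median stayed between -0.06 and -0.02. For GSI at 10 h, the count of members higher was 0 with no replicate block, with a spread set by time, with the 10 h arrays alone and with either run alone, 2 with genes above the median level only, and 0 to 1 when a pair was left out; 1 was lower (Nek2) with cyclic loess and with genes above the median level. The members' median at 10 h ran from -0.05 to 0.08 over left-out pairs and was -0.05 and -0.08 under joint quantile and cyclic loess normalization. For the GSI effect by time, no member passed under any alternative and the median ran from 0.01 to 0.15 over left-out pairs. In the time comparison with GSI, the values as deposited gave 1 member higher, 17 lower, a median of -0.28, 7 further genes higher, 21 lower and 4 replication genes higher. Of all genes 2.12% were higher there and 65% lower. Centring gave 18 higher, 0 lower and a median of 0.33. Run 4 alone gave 5 higher, 0 lower, 18 further genes and 11 replication genes higher, run 5 alone 3 higher, 2 lower and 9 replication genes higher, and leaving out 4 h pairs 2, 4 and 5 gave 4 higher, 0 lower and 13 replication genes higher (these 3 settings were chosen after seeing the data). Left-out arrays gave 4 to 9 members higher, 0 to 1 lower, a median of 0.13 to 0.19, 26 to 33 further genes higher, 2 to 3 lower and 13 to 20 replication genes higher. In DMSO, the values as deposited gave 0 members higher, 17 lower, a median of -0.34, 4 further mitosis genes higher, 22 lower and 3 replication genes higher. Of all genes 2.09% were higher there and 58.1% lower. Centring each array on its median gave a median of 0.26, and run as a random block 6 members higher. The 10 h arrays of run 4 alone gave 3 members, 10 further mitosis genes and 7 replication genes higher and 1 further mitosis gene lower, those of run 5 alone 4, 19 and 11 higher, and leaving out the 4 h pairs 2, 4 and 5 gave 3 members higher and 1 further gene lower. Left-out arrays gave 5 to 10 members higher, 1 lower, a median of 0.09 to 0.23, 18 to 29 further genes higher, 2 to 3 lower and 11 to 18 replication genes higher. As deposited, Kif20a, Kif4, Nek2 and Tpx2 in DMSO turned to -0.12, -0.10, -0.14 and -0.12. With GSI, Nuf2 turned to -0.060 and Ndc80 to -0.090 as deposited. Over all 22180 genes the calls for GSI at 10 h, 148 as reported, were 0 with no replicate block, 37 with joint quantile normalization, 63 with cyclic loess, 19 with a spread set by time, 91 with no intensity trend, 2 with the 10 h arrays alone, 0 and 15 with run 4 or run 5 alone, and 27 to 228 over left-out pairs. They were 285 with genes above the median level only, where the fit and the adjustment covered just those genes. With no replicate block the calls were also 0 at 4 h and for the effect by time, against 1 and 4 as reported. With time they were 14895 with GSI and 13348 in DMSO as deposited, against 8001 and 7523. With the pair as a random replicate block over all 22 arrays, the rise of Ndc80 with GSI did not pass (adjusted p = 0.0537). The cause of these differences was not tested, beyond the fewer arrays of the run and left-out settings. Ndc80 at 10 h passed with genes above the median level only, and Nek2 there and with cyclic loess (adjusted p down to 0.0396 and 0.0391).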
